A study of Mus musculus with 12 samples.

Results

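The Igf2 and Rasgrf1 loci were examined in mouse embryonic stem (ES) cells on a CpG island microarray that measured immunoprecipitated methylated DNA. Members were all non-control probes whose mm9 position lay in chr7:149740000-149860000, which holds H19, its upstream control region and Igf2, or in chr9:89760000-89810000, which holds the Rasgrf1 control region and promoter. Of 88737 probes, 41 met this rule. They did not cover the windows evenly: 23 lay at Igf2 and 18 on the Rasgrf1 promoter side. H19, its control region and the Rasgrf1 control region were not analysed here, so the values describe Igf2 and the Rasgrf1 promoter side, not the paternally methylated control regions. The array files give a position for 88411 of the 88737 probes and no gene, so the gene names come from the windows alone.

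All 4 lines came from the CC9.3.1 ES cell line, which was derived from a 129SvEv-Gpi1c(129S6) embryo, and shared its nuclear background. Mitochondria-depleted ES cells had been fused with enucleated cytoplasts, so that CC9mus carried Mus musculus mtDNA, CC9spretus that of M. spretus, CC9dunni that of M. terricolor and CC9pahari that of M. pahari. Each line was grown on feeder cells, moved to feeder-free culture for 48 h, and measured on 3 arrays, 12 in all. Each mtDNA type was represented by a single line, so mtDNA type and line cannot be told apart. The comparison asks whether methylation of nuclear DNA differs with the mtDNA that the cells carry.

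Genomic imprinting is the expression of a gene from the maternal or the paternal copy according to methylation set in the germ line. Igf2, a fetal growth factor, is expressed from the paternal copy, and H19, a long noncoding RNA, from the maternal copy, under a shared control region that is methylated on the paternal chromosome. Rasgrf1, a guanine nucleotide exchange factor that activates Ras, is expressed from the paternal copy and also has a paternally methylated control region upstream of its promoter.

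On each array, DNA immunoprecipitated with an antibody to 5-methylcytosine (5mC) carried the dye Cy5, and total input DNA carried Cy3. Values are log2 ratios of the processed Cy5 signal to the processed Cy3 signal, centred on the median of the array, so that 0 is the typical probe of that array. The arrays differed in the width of this scale. The SD of the ratio over all probes was 0.53, 1.85 and 2.01 for CC9mus replicates 1, 2 and 3, and between 1.09 and 1.38 for the 9 arrays of the other lines. CC9mus replicate 1 was thus the narrowest of the 12 arrays and replicates 2 and 3 were the widest, and their part in the results was not tested beyond the values given with each array left out or with spreads made equal.

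The immunoprecipitate signal of the 41 probes was well above background for 39, 32 and 39 probes on the CC9mus arrays, and for 27 (CC9dunni replicate 1) to 39 (CC9dunni replicate 3) on the others. For the input, 35 to 41 of the members reached that level on each array. Saturated and outlier-flagged member spots numbered 0.

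The members fell into 3 clusters. The first Igf2 cluster held 19 probes over 2351 bp (chr7:149844923-149847273), and the second held 4 probes over 509 bp (chr7:149849765-149850273), with 2491 bp free of probes between them. The Rasgrf1 cluster held 18 probes over 2509 bp (chr9:89803449-89805957). Probes were 45 to 60 bases long. Probes of a cluster lie close enough to share sonicated DNA fragments and are not independent measurements.

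The 4-probe Igf2 cluster was high in CC9mus and near the array median in the other lines. Its mean log2 ratio was 0.48, 2.01 and 3.46 in CC9mus replicates 1, 2 and 3. In CC9spretus it was -0.01, 0.11 and -0.12, and in CC9dunni 0.12, 0.01 and 0.22. In CC9pahari it was 0.04, 0.06 and 0.37. All 3 CC9mus arrays lay above all 9 others, with replicate 1 only just above CC9pahari replicate 3. The line means were 1.98 ± 1.49 (SD, n = 3) in CC9mus, 0.16 ± 0.19 in CC9pahari, 0.12 ± 0.11 in CC9dunni and -0.01 ± 0.12 in CC9spretus, and the last 3 overlapped within their spread.

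Ranked within each array among 14586 loci (neighbouring probes joined wherever 1000 bp or less separates them), this cluster stood at percentile 88.9, 89.4 and 90.8 in the CC9mus arrays and at percentile 34.4 to 67.4 in the other 9. On this scale the CC9mus arrays were close together, whereas their log2 ratios were far apart. In a limma fit across all loci, CC9mus exceeded the mean of the other 3 lines by 1.89 (SE 0.45, adjusted p = 0.0515), which did not pass the threshold of 0.05. The fit used 1 spread for all 4 lines. The SD was 1.49 in CC9mus and 0.11 to 0.19 in the others, so this SE and p-value understate the CC9mus spread. No locus passed it in this contrast (0 of 14586, 0%), and 4708 loci (32.3%) had an unadjusted p under 0.05. Over 24 alternatives the difference of the cluster was above 0 in all 24. Leaving aside the later scan period alone, their limma adjusted p ran from 0.00027 to 0.167. With spreads made equal across arrays the difference was 1.24 (limma adjusted p = 0.00623), where 13.8% of all loci passed, with normexp background correction it was 1.08 (0.145), and with the scan period as a block it was 1.82 (0.117). Within the later scan period alone, where each other line has 1 array, it was also 1.82, and the 3 CC9mus arrays lay above the 3 others. With both scan periods, the difference was 1.16 without CC9mus replicate 3, and without CC9mus replicate 1 it was 2.64.

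Within this cluster, the probe at chr7:149849962-149850008 had the largest moderated t of the Igf2 probes. It read 0.19, 1.82 and 4.25 in CC9mus, against -1.09, -0.48 and -0.77 in CC9spretus. It read -0.62, -0.72 and -0.20 in CC9dunni and -0.61, -0.92 and -0.41 in CC9pahari. The 3 CC9mus arrays were above 0 and the 9 others below it, with no overlap. CC9mus exceeded the other 3 lines by 2.73 (SE 0.61, limma adjusted p = 0.0420). The limma adjusted p was 0.000697 without CC9mus replicate 1 and 0.173 with the scan period as a block. Without CC9mus replicate 3 the difference was 1.65, and without replicate 1 it was 3.68.

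The probe at chr7:149849765-149849812 read 0.52, 1.80 and 3.87 in CC9mus and between -0.50 and 0.55 (median 0.05) in the 9 other arrays. CC9mus replicate 1 lay inside the range of the other lines and replicates 2 and 3 lay above it. The difference was 2.02 (SE 0.52, limma adjusted p = 0.0482; range over the alternatives 0.0011 to 0.969), and it was 1.12 without CC9mus replicate 3 and 2.80 without replicate 1. The probe at chr7:149850051-149850095, with the highest mean ratio of the Igf2 probes, read 0.68, 2.21 and 1.61 in CC9mus and from -0.14 to 1.50 (median 0.75) elsewhere. Its groups overlapped, and its difference of 0.84 (SE 0.37) had a limma adjusted p of 0.156. It was 0.48 without CC9mus replicate 2, 0.38 with equal spreads and 0.31 with normexp, and 1.24 without replicate 1, where it passed (limma adjusted p = 0.0176). Its immunoprecipitate was well above background on 8 of 12 arrays, 2 of 3 in CC9mus and 1 of 3 in CC9pahari, and its input on 2 of 3 in CC9mus, CC9dunni and CC9pahari. The remaining probe, at chr7:149850229-149850273, read 0.52, 2.22 and 4.09 in CC9mus and from 0.08 to 0.46 (median 0.27) in the other 9 arrays. It did not overlap, yet its difference of 1.98 (SE 0.53) had a limma adjusted p of 0.0524 and did not pass. It was 1.08 without CC9mus replicate 3 and 2.86 without replicate 1, where it passed (limma adjusted p = 0.000712).

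The 19-probe Igf2 cluster showed no call between the lines. Its mean was -0.12, -0.36 and 0.62 in CC9mus, -0.37, -0.20 and -0.28 in CC9spretus, -0.20, -0.21 and -0.34 in CC9dunni, and -0.15, -0.06 and -0.35 in CC9pahari. Only CC9mus replicate 3 stood apart, above 0, and the lines overlapped. Its percentile among loci was 33.6, 41.8 and 65.3 in CC9mus and 36.5 to 46.2 in the 6 earlier arrays of the other lines, but 22.5, 12.3 and 18.4 in the later arrays of CC9spretus, CC9dunni and CC9pahari. CC9mus averaged 0.05 ± 0.51 (SD, n = 3) and the 9 other arrays -0.24 ± 0.10, and the difference of 0.29 (SE 0.19, limma adjusted p = 0.314) did not pass in the fit or in any of 24 alternatives, where the lowest adjusted p was 0.103. Without CC9mus replicate 3 the difference was 0.00.

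The probe at chr7:149846360-149846419 had the lowest mean of the Igf2 probes over the 12 arrays, at -1.53. Its immunoprecipitate was well above background on 2 of 12 arrays, 1 of 3 in CC9mus and in CC9dunni and none in CC9spretus and CC9pahari. Its level on the others is only a bound. The probe starting at 149845649 averaged -1.51 and was well above background on 4 of 12, so which is lowest was not determined. The probe at chr7:149847224-149847273, at the end of the cluster that faces the 4-probe cluster, passed the test. It read 0.19, 0.88 and 1.22 in CC9mus and -0.80 to 0.18 (median -0.36) in the other 9 arrays. CC9mus replicate 1 was only just above the highest of these. Its difference was 1.13 (SE 0.29, limma adjusted p = 0.0487). Its limma adjusted p was 0.00322 without CC9mus replicate 1 and 0.193 with the scan period as a block. Its immunoprecipitate signal was well above background on 3 of 3 CC9mus arrays but on only 1 of 3 in each other line. Its input was well above background on 3 of 3 CC9mus arrays, 2 of 3 in CC9spretus and 1 of 3 in CC9dunni and in CC9pahari. Its level on most arrays of the other lines was therefore a bound or not determined, and the difference of 1.13 is not exact. With normexp the difference was 0.15 (limma adjusted p = 0.747).

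The Rasgrf1 cluster was high in CC9mus replicates 2 and 3 but not in replicate 1. Its mean log2 ratio was 0.11, 1.39 and 2.56 in CC9mus and 0.01, 0.10 and 0.53 in CC9spretus. It was -0.18, -0.08 and 0.23 in CC9dunni and 0.15, 0.24 and 0.77 in CC9pahari. The immunoprecipitate was well above background for 8, 10 and 16 of the 18 probes in CC9dunni and 11, 14 and 15 in CC9pahari. It was so for 14 to 18 in CC9mus and 15 to 17 in CC9spretus. The means of CC9dunni and CC9pahari, most of all in replicates 1 and 2, thus rest partly on bounds. CC9mus replicate 1 fell inside the range of the other lines, so the groups overlapped. The line means were 1.35 ± 1.23 (SD, n = 3) in CC9mus, 0.39 ± 0.34 in CC9pahari, 0.21 ± 0.28 in CC9spretus and -0.01 ± 0.21 in CC9dunni, and no neighbouring lines in that order differed beyond their spread.

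The percentile of the Rasgrf1 cluster among loci was 63.1, 82.7 and 83.3 in CC9mus and 43.3 to 81.8 in the other 9 arrays. CC9mus exceeded the other 3 lines by 1.16 (SE 0.39, limma adjusted p = 0.0833), which did not pass, and 2 of 24 alternatives passed. Leaving aside the later scan period alone, where each other line has 1 array, their limma adjusted p ran from 0.00101 to 0.580. The difference was 0.56 with equal spreads (limma adjusted p = 0.156) and 0.58 with normexp (0.187). It was 0.55 without CC9mus replicate 3 (0.313) and 1.78 without replicate 1 (0.00101), where 50.3% of all loci passed. In each of the 3 divergent lines, the array of the later scan period was the highest: these 3 arrays averaged 0.51 ± 0.27 and the 6 of the earlier period 0.04 ± 0.15. All 3 CC9mus arrays belonged to the later period. Blocking on scan period gave a difference of 0.84 (limma adjusted p = 0.236), and with equal spreads as well, an alternative chosen after seeing the data, it was 0.18 (limma adjusted p = 0.580). Within the later period, CC9mus replicate 1 lay below all 3 arrays of the other lines and replicates 2 and 3 above them.

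The probe at chr9:89803954-89804013 had the largest moderated t of the Rasgrf1 probes. It read 0.41, 2.21 and 2.68 in CC9mus and from -1.83 to 0.93 (median -0.66) in the other 9 arrays. CC9pahari replicate 3, at 0.93, lay above CC9mus replicate 1, so the groups overlapped. The difference was 2.32 (SE 0.53, limma adjusted p = 0.0428). The limma adjusted p was 0.00163 without CC9mus replicate 1 and 0.185 with the scan period as a block.

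Near the other end, the probe at chr9:89805756-89805800 read 0.12, 1.65 and 4.25 in CC9mus and from -1.10 to 0.14 (median -0.79) elsewhere. CC9mus replicate 1 was just below CC9dunni replicate 3, and replicates 2 and 3 were above all others. The difference was 2.62 (SE 0.64, limma adjusted p = 0.0453), and it was 1.50 without CC9mus replicate 3. It was 3.56 without replicate 1 (limma adjusted p = 0.00121) and 2.19 with the scan period as a block (0.190). Both of these Rasgrf1 probes were well above background on 3 of 3 CC9mus and CC9spretus arrays, but on 1 of 3 CC9dunni and 2 of 3 CC9pahari arrays.

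The probe at chr9:89803449-89803494 had the highest mean ratio of the Rasgrf1 probes and was high in every line. It averaged 2.53 ± 1.50 in CC9mus, 1.94 ± 0.37 in CC9pahari, 1.46 ± 0.05 in CC9dunni and 1.45 ± 0.55 in CC9spretus (SD, n = 3). The lines overlapped, and its difference of 0.91 (limma adjusted p = 0.236) was -0.04 with equal spreads, 0.36 without CC9mus replicate 3 and 1.76 without replicate 1, where it passed (limma adjusted p = 0.00201). The lowest, at chr9:89805194-89805241, averaged -0.14 ± 0.88 in CC9mus and -1.04 ± 0.57 over the 9 others, and its difference of 0.90 had a limma adjusted p of 0.194. That difference was 0.39 without CC9mus replicate 3, 0.34 with normexp and 1.17 without replicate 1, and did not pass. In the middle of the cluster, 3 neighbouring probes chosen after their values were seen, which start at 89804436, 89804506 and 89804607, had differences of -0.14, 0.02 and -0.17, and with equal spreads of -0.66, -0.17 and -0.54 (limma adjusted p = 0.105, 0.649 and 0.0941). There the CC9mus arrays overlapped with those of the other lines. Of the 18 Rasgrf1 probes, 8 had an unadjusted p under 0.05, against 28.9% of all probes, with differences of 1.26 to 2.62, and these lay on either side of the middle probes. The last probe, at chr9:89805913-89805957, also chosen after its values were seen, read 0.72, 1.54 and 4.29 in CC9mus and from -1.10 to 0.60 (median 0.07) elsewhere. All CC9mus arrays lay above the others there, and its difference of 2.23 (SE 0.58) had a limma adjusted p of 0.0505. It was 1.18 without CC9mus replicate 3, 0.84 with normexp and 2.96 without replicate 1, where it passed (limma adjusted p = 0.00271). Its immunoprecipitate was well above background on only 6 of 12 arrays, 2 of 3 in CC9mus and 1 of 3 in CC9dunni and in CC9pahari, and its input on 1 of 3 CC9dunni arrays. The probe at chr9:89804022-89804081 had an immunoprecipitate well above background on only 1 of 12 arrays, and an input well above background on 3 of 3 CC9mus arrays but on 1, 0 and 1 of 3 in CC9spretus, CC9dunni and CC9pahari, so its level in those lines was not determined.

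Over all members, 5 of 41 probes (12.2%) passed in the limma fit of CC9mus against the other 3 lines, and all 5 were higher in CC9mus, against 4.57% of all probes (4056 of 88737) called in either direction and 2.76% called higher in CC9mus. The 5 were 1 of 19 and 2 of 4 probes in the Igf2 clusters and 2 of 18 in the Rasgrf1 cluster. The called probe of the 19-probe cluster was well above background on only 3 of the 9 arrays of the other lines. At an unadjusted p under 0.05, 15 of 41 members were counted, all higher in CC9mus, against 28.9% of all probes. The median difference was 0.68 over the members and -0.06 over all probes. In 4 members all 3 CC9mus arrays lay above the 9 others, against 3.78% of all probes, and in 0 members all 3 lay below, against 3.41%.

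The count moved with single arrays. Without CC9mus replicate 1, 20 of 41 members passed, 19 of them higher in CC9mus, while 40.4% of all probes passed. Without any other single array, 0 of 41 passed. Of all loci, 0.432% passed without CC9mus replicate 3 and 0% without each of the remaining arrays. The share of all probes is not given for these fits. A share of loci cannot stand in for it, as 4.57% of probes but 0% of loci passed in the reported fit. With normexp 0 passed, against 0.0270% of all probes, and the 5 called probes had differences of 0.15, 1.02, 1.40, 0.88 and 1.24 in order of position. With equal spreads 9 members passed, all higher, while 12.1% of all probes passed. With equal spreads and the scan period as a block, chosen after seeing the data, 6 passed, 5 higher and 1 lower, while 21.4% of all probes did. With the scan period as a block or with the slide as a random block, 0 members passed. Of all loci 0.0617% and 0% did, again a share of loci and not of probes. In the later scan period alone each other line has 1 array, so no count is given for it.

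Against CC9mus singly, 0 of 41 members passed in limma for CC9spretus, CC9dunni or CC9pahari, and 0% of all probes did. At an unadjusted p under 0.05 the counts were 13, 14 and 12, all lower than in CC9mus, against 17.1%, 23.4% and 20.7% of all probes. These contrasts share the CC9mus arrays. Among the 3 divergent lines, fitted with scan period as a covariate, 0 members passed in limma against 0.206% of all probes. At an unadjusted p under 0.05 there were 4, against 15.3%, and the lowest adjusted p of a member was 0.101.

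At the level of whole clusters, the same contrasts gave no call in the reported fit. The 4-probe Igf2 cluster was lower than in CC9mus by a log2 difference of -1.99 in CC9spretus, -1.86 in CC9dunni and -1.83 in CC9pahari (limma adjusted p = 0.203, 0.132 and 0.125). It passed in all 3 contrasts with equal spreads (0.0363, 0.0189 and 0.0250, where 0.768%, 9.02% and 5.62% of all loci passed), with the percentile within the array (0.0232, 0.0420 and 0.0256, against 5.10%, 10.2% and 12%), with equal spreads and the scan period as a block (0.0233, 0.0173 and 0.0211, against 14.2%, 25.2% and 23.4%) and without CC9mus replicate 1 (0.00121, 0.000951 and 0.000891, against 36.0%, 42.2% and 46.3%). Without CC9mus replicate 3 the differences were -1.25, -1.13 and -1.09, with normexp they were -1.08, -1.10 and -1.05, and none of these passed. The Rasgrf1 cluster differed by -1.14, -1.36 and -0.96 (limma adjusted p = 0.247, 0.153 and 0.227). It passed in all 3 without CC9mus replicate 1 (0.00410, 0.00211 and 0.00478), and its differences were -0.54, -0.76 and -0.36 without replicate 3, which did not pass. With equal spreads its differences were -0.56, -0.75 and -0.37, and with normexp -0.63, -0.66 and -0.44. With equal spreads and the scan period as a block they were -0.18, -0.37 and 0.00. None of these passed. Over all loci, 0% passed in each of these contrasts, and 18.9%, 24.0% and 25.5% had an unadjusted p under 0.05. Among the divergent lines, 2.24% of loci passed, against 20.5% at an unadjusted p under 0.05. The 19-probe Igf2, 4-probe Igf2 and Rasgrf1 clusters had limma adjusted p of 0.777, 0.633 and 0.137.

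Taking a mean log2 ratio above 2 as hypermethylated, which is a ratio above 4, 8 of 41 members met it in CC9mus, 3 in the 4-probe Igf2 cluster and 5 in the Rasgrf1 cluster. The share over all probes was 9.39%. The count was 0 with equal spreads, with normexp, without CC9mus replicate 3 or with every array required to pass the threshold. It was 4 with ratios not centred and 14 without CC9mus replicate 1. The share over all probes is not given for these alternatives, so their counts cannot be set against it. In CC9spretus, CC9dunni and CC9pahari, 0 members met it, against 5.16%, 5.32% and 4.71% of all probes. A mean below -2 was found for 1 member in CC9spretus and 1 in CC9pahari, against 1.08% and 0.124% of all probes, and for 0 in CC9mus and CC9dunni, against 3.25% and 0.586%. Both lay in the 19-probe Igf2 cluster, and neither was well above background on any array of that line.

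The input signal, which follows the amount of DNA, was compared in the same way. In the 4-probe Igf2 cluster, the input deviated from its own mean over the arrays by -0.01 to 0.02 on the log2 scale in CC9mus and by -0.35 to 0.19 in the other lines. In the Rasgrf1 cluster it deviated by 0.04 to 0.11 in CC9mus and by -0.23 to 0.37 elsewhere. The CC9mus values lay within the range of the other lines at both clusters. In the 19-probe Igf2 cluster the input was 0.10 to 0.12 in CC9mus and -0.14 to 0.04 elsewhere, so that all 3 CC9mus arrays were above the other 9, and the part of this in the ratio was not tested.

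For comparison, 5 other imprinted control regions were measured on the same arrays. At the paternally methylated Meg3 intergenic region (4 probes), CC9mus averaged 6.04 ± 2.27 (SD, n = 3), CC9spretus 2.94 ± 0.94, CC9dunni 0.80 ± 1.18 and CC9pahari 0.29 ± 0.26. Its CC9mus difference was 4.70 (SE 0.79, limma adjusted p = 0.0515). The adjustment gave Meg3 and the 4-probe Igf2 cluster the same value, while their unadjusted limma p-values were 0.000106 and 0.00145. The input of the Meg3 region deviated by -0.65 to -0.56 in CC9mus and by 0.01 to 0.35 in the other 9 arrays, and the part of this in the ratio was not tested. The Mest input was also low in CC9mus (-0.54 to -0.20, against -0.15 to 0.32), and the Kcnq1ot1 input was high (0.33 to 0.36, against -0.28 to 0.11). The maternally methylated Peg3, Igf2r and Mest regions had differences of 2.80, 2.70 and 2.45, and Kcnq1ot1 had -1.22, none of which passed in limma in this contrast. The Kcnq1ot1 value came from CC9spretus, at 3.30 ± 1.01 (SD, n = 3), while CC9mus averaged -0.24 ± 0.21, CC9dunni -0.21 ± 0.49 and CC9pahari -0.15 ± 0.30. The difference between these regions and the members was not tested.

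By their profile over the 12 arrays, scaled to equal spread, the loci most like the 4-probe Igf2 cluster were chr14:62911310-62911904 (Pearson r = 0.975), chr3:108028641-108029751 (0.972) and chr3:88018298-88019480 (0.972), of 13089 loci of at least 3 probes. The Rasgrf1 cluster was most like chr6:142519812-142520213 (0.965), chr3:94757913-94758485 (0.951) and chr15:98635682-98637515 (0.949). The 19-probe Igf2 cluster was most like chr2:151968924-151969978, with r = 0.941. Such profiles were not rare: r was over 0.9 in 244 loci for the 4-probe Igf2 cluster, 82 for the Rasgrf1 cluster and 5 for the 19-probe Igf2 cluster. Between the 4-probe Igf2 and Rasgrf1 clusters r was 0.731, with 1190 loci more like the former and 1127 more like the latter. The 12 points share 4 lines and 2 scan periods.

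Promoter sequences are shown because the arrays measure CpG methylation, and CpG sites are where most mammalian DNA methylation lies. They are from RefSeq on GRCm38.p6, 250 bases before the start of the gene, while the probes are placed on mm9, so their position relative to the probes was not set. RefSeq gave 4 promoters for Igf2 and 1 for Rasgrf1. The Igf2 promoter richest in CpG (chr7:142658805-142659054, minus strand) held 22 CpG and the Rasgrf1 promoter (chr9:89909525-89909774, plus strand) 21, against a median of 6 over 32851 promoters. At least as many were found in 14.8% and 16.3% of all promoters. The other Igf2 promoters held 10, 6 and 1. Capitals mark each CG, the motif searched, which reads the same on both strands.
Igf2 promoter: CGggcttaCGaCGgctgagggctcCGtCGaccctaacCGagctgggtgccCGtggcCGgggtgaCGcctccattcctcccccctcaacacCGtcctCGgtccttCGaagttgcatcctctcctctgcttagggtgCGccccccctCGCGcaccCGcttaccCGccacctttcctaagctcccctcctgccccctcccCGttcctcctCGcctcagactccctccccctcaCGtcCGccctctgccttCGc
Rasgrf1 promoter: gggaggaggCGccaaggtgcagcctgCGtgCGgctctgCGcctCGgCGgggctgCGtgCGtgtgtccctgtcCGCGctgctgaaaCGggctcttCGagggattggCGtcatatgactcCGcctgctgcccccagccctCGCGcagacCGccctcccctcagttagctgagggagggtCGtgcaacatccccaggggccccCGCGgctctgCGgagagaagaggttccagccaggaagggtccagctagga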

How the data were processed

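DNA from 4 ES cell lines, 3 arrays each, was hybridised to 2-colour Agilent mouse CpG island arrays, with 5mC immunoprecipitate in Cy5 and input in Cy3 and no dye swap. The deposited intensity values are processed signals, which Feature Extraction background-subtracted, spatially detrended and dye-normalised; the submitters' processing notes give version 11.0.1.0 and the file headers 11.0.1.1. The deposited log10 ratio of these signals is not centred, and the series table holds the same log10 values (largest difference 0). Of its columns of per-sample values, 0 were left out. Replicates are labelled as separate samples with nothing on separate cultures, so p-values measure only the spread between arrays, and the number of arrays limits precision.

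Log2 ratios of processed signals were centred on the array median, and outlier-flagged spots were set missing. limma 3.58.1 in R 4.3.3 (lmFit and eBayes) was fitted to all probes and to all locus means, with Benjamini-Hochberg adjustment over all of them. A check of the fit on simulated data drew independent noise with the same spread in every array. It therefore does not cover the unequal spread of the CC9mus arrays or the dependence between neighbouring probes. Tables were computed in Python 3.11.15 with pandas 2.3.3 and numpy 2.4.6. The 4 line means shared 1 estimate of spread. At the 3 clusters and the 5 called probes, CC9mus had the widest spread of the 4 lines. The SE and p-values of contrasts with CC9mus therefore understate its spread there. The test among divergent lines used 9 arrays with the scan period as a covariate. The arrays came from 8 slides, 5 scan days and 2 scan periods; CC9mus was scanned on a day of its own, so scan day and CC9mus cannot be told apart.

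Members and lists were chosen with earlier results of these data known. For each gene, the named probes are those with the highest mean, the lowest mean and the largest moderated t, and every member with an adjusted p under 0.05. The probes starting at 149850229 and 89804022, and those marked as chosen after their values were seen, were named outside this rule. Planned tests of the H19 and Rasgrf1 control regions could not be run, and those regions are not analysed here. The locus tests and likeness of the 3 measured clusters were chosen after seeing the data in their place. Alternatives were other centring, scaling, background correction, spot filters, blocks, array subsets and locus gaps.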

Additional observations from a re-analysis of the deposited data

How the results depend on the processing

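Counts out of 41 members are given first, with the share of all probes called in parentheses. For CC9mus against the other 3 lines (5 in the reported fit, 4.57%), 10 passed with ratios not centred (5.83%) and 9 with equal spread (12.1%). With the percentile within the array 9 passed (16.3%), and 6 with equal spread and the scan period (21.4%). With normexp background correction, the scan period as a block or the slide as a random block 0 passed. Of all loci, 0%, 0.0617% and 0% passed in those fits, which is a share of loci and cannot be set against the count of member probes. The later scan period alone has 1 array in each other line and is given no count. Leaving out 1 array gave 0 to 20 (40.4% at the highest). The unadjusted counts under normexp, scan period and slide were 11, 13 and 14 of 41 members. In the same fits, 3646, 4538 and 3943 of 14586 loci had an unadjusted p under 0.05. The share of all probes is not given for these unadjusted counts, so they have no background of the same unit. For CC9spretus, CC9dunni and CC9pahari against CC9mus (0 each), equal spread gave 0, 8 and 2 (0.178%, 9.16% and 3.95%), and the percentile 3, 9 and 4 (4.30%, 11.8% and 10.3%). Equal spread with the scan period as a block, chosen after seeing the data, gave 2, 7 and 3 (7.86%, 19.5% and 14.6%). Leaving out 1 array gave 0 to 17, 0 to 20 and 0 to 16, the highest without CC9mus replicate 1 (27.0%, 34.0% and 31.7%). Among the divergent lines the count was 0 under every alternative run. The cause of these changes was not tested.

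With the replicate number as a block, 11 members passed for CC9mus against the other lines (8.42% of all probes) and 2 for CC9dunni against CC9mus (1.18%). Whether the number pairs the arrays was not settled. Deviations from line means correlated by over 0.1 in 12 of 18 same-numbered pairs (median 0.13, lowest -0.38, highest 0.54), and 6 of 12 arrays were nearest their own number. In each divergent line, replicate 3 was scanned in the later period and replicates 1 and 2 in the earlier. Blocked on the replicate number, the 4-probe Igf2 and Rasgrf1 clusters passed, with differences of 1.89 (limma adjusted p = 0.0400) and 1.16 (0.0483), as did 7.95% of all loci.

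The 4-probe Igf2 cluster also passed with bright input only (2.26), equal spread (1.24), equal spread with the scan period (1.14), ratios not centred (1.82) and the percentile (31.6 percentile points), where 4.86%, 13.8%, 30.0%, 7.90% and 15.4% of all loci passed against 0% in the reported fit. Leaving out 1 array gave 1.16 to 2.64 for it, 0.55 to 1.78 for the Rasgrf1 cluster and 0.00 to 0.49 for the 19-probe Igf2 cluster; both of the former passed without CC9mus replicate 1, where 50.3% of all loci did.

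Hypermethylated members in CC9mus (8) were 4 with ratios not centred, 0 with normexp, equal spread or every array past the threshold, and 0 to 14 without 1 array. In CC9pahari (0) there was 1 with equal spread and 0 to 1 without 1 array. Hypomethylated members were 0 to 2 in CC9mus without 1 array. In CC9spretus and CC9pahari (1 each) they were 0 with normexp or every array past the threshold, and 0 to 1 without 1 array. The share of all probes is not given for these alternatives, so the hypermethylated and hypomethylated counts cannot be set against it. Of 108 alternatives for the cluster levels in the 4 lines, 98 moved by less than 1 SD. The SD over the CC9mus arrays was 1.49 at the 4-probe Igf2 cluster and 1.23 at the Rasgrf1 cluster, so large moves there could stay under 1 SD. With equal spreads these CC9mus levels went from 1.98 to 1.36 and from 1.35 to 0.80.

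The H19 and Rasgrf1 control region tests and all their alternatives were not run, as those regions are not analysed here. Where the immunoprecipitate alone was not well above background the ratio is a bound, and where the input was not either, its level was not determined. CC9mus has the widest and the narrowest arrays and a scan day of its own, and each mtDNA type is 1 line.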
